A study of Caenorhabditis elegans with 20 samples.

Results

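The 10 genes followed here belong to the oocyte and the eggshell and were measured across 20 libraries of whole Caenorhabditis elegans. They were chosen by sequence name for what they do, with earlier results of these data known. All 10 were present among the 21383 genes of the count table: C07G2.1 (cpg-1), B0280.5 (cpg-2), H02I12.1 (cbd-1), C44B12.1 (perm-2), C44B12.5 (perm-4), B0244.8 (egg-1), R01H2.3 (egg-2), T11F8.3 (rme-2), C09G9.6 (oma-1) and ZC513.6 (oma-2). The libraries formed 4 groups of 5: elt-2 overexpressing worms at Day 13, control worms at Day 13, elt-2 overexpressing worms at L4 and control worms at L4. The elt-2 overexpressing strain, SD1963, carries rde-1(ne300), unc-119(ed3) and an extrachromosomal array of multiple copies of elt-2:GFP together with unc-119(+). The control strain, SD1965, carries rde-1(ne300), unc-119(ed3) and an array of unc-119(+) alone, so both strains share the rde-1 and unc-119 mutations and the rescuing marker. ELT-2 belongs to the GATA family and acts in the intestine, its transgene was driven by the upstream region of elt-2, and only 1 overexpressing line was sequenced. Strains are those of the sample labels; the growth text names N2 for the L4 animals and the study's methods are not uniform in which strain number they give to which array, so the strain of the L4 animals rests on the labels. L4 larvae, the last larval stage, were collected 28 hours after feeding began in synchronized L1 larvae. Day 13 worms had been kept as adults on plates with FUDR, a drug that blocks the production of progeny, and washed over nylon mesh to take away eggs and larvae. Each library was made by 3SEQ from a population that began with about 10000 animals, and the labels call the 5 populations of a group biological replicates. Dead worms were taken off the plates by hand on Day 13, so the Day 13 libraries come from survivors.

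A C. elegans hermaphrodite makes sperm first, in the L4 stage, and then turns its germline over to oocytes for the rest of its life. The growing oocyte stores the proteins that will form the eggshell, takes up yolk made in the intestine, and at maturation is held ready for the sperm by a set of RNA-binding proteins. After fertilization the eggshell is laid down in layers: an outer vitelline layer, a chitin layer, a layer of chondroitin proteoglycans and a lipid-rich permeability barrier.

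The members fall into 3 roles. Of the eggshell genes, cpg-1 (chromosome III, 4489359 to 4491392, plus strand) and cpg-2 (chromosome III, 7102092 to 7103990, minus strand) encode chondroitin proteoglycans that bind chitin. The gene cbd-1 (chromosome IV, 11372991 to 11377627, plus strand) encodes a chitin-binding protein of the vitelline layer. Both perm-2 (chromosome IV, 1126790 to 1128865, plus strand) and perm-4 (chromosome IV, 1121494 to 1125107, minus strand) are needed for an eggshell that keeps small molecules out, and they are neighbours on opposite strands. On the oocyte surface, egg-1 (chromosome III, 5728180 to 5730159, plus strand) and egg-2 (chromosome III, 7058527 to 7060583, minus strand) encode related membrane proteins that an oocyte needs for sperm to enter, and rme-2 (chromosome IV, 5470026 to 5473174, plus strand) encodes the receptor that takes up yolk. The third role is held by oma-1 (chromosome IV, 8888976 to 8890999, plus strand) and oma-2 (chromosome V, 8029439 to 8031214, plus strand), closely related zinc finger proteins that act together in oocyte maturation. Positions and symbols are those of the Ensembl 115 annotation of WBcel235, and all 10 genes are protein-coding. How reads were shared between near copies is not given in the sources used here, so the separate values of egg-1 and egg-2 and of oma-1 and oma-2 are uncertain to that extent. The exons of perm-2 and egg-1 lie within loci that overlap another gene on the other strand, C44B12.6 with at most 9 counts and B0244.9 with at most 60 counts in any library.

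Library totals ranged from 10749795 to 42317549 counts, and 3 counts, the floor for telling a gene from absence, corresponded to 0.0970 to 0.177 CPM (counts per 1000000, scaled by TMM over the 20 libraries). In 3SEQ a transcript gives reads near its 3′ end, so a count does not grow with transcript length, but reads carry no molecular identifiers and the floor covers counting error only. Counts of elt-2 itself were 139 to 181 in overexpressing worms against 24 to 38 in control worms at Day 13, and 76 to 225 in overexpressing worms against 17 to 59 in control worms at L4. The transgene ends in the 3′ UTR of another gene, so reads from the end of its transcripts need not count towards elt-2 and these counts are a limited check of the labels. Each group has 1 library for each letter from A to E. The 12 libraries of letters A to C stood apart from the 8 of letters D and E in the levels of many genes. Pooled over the groups, their depths overlapped (22338800 to 42317549 counts against 10749795 to 25967701). Within each group, every library of letters D and E held fewer counts than every library of letters A to C. In control worms at Day 13 the totals were 33869821 to 35201428 counts against 10749795 and 13990486. The part of depth in the differences between the letters was not tested, and nothing in the labels says what the letters stand for. Each result is therefore also given within letters A to C and within letters D and E. In bulk samples such as these, fewer cells of a type and less RNA per cell cannot be told apart.

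The 10 genes together took a large and variable share of all counts. At Day 13 the share was 0.884% to 1.90% of the counts of a library in overexpressing worms and 1.55% to 2.44% in control worms. At L4 it was 0.231% to 0.287% in overexpressing worms and 0.0838% to 0.309% in control worms for letters A to C. The L4 libraries of letters D and E held far less, 0.00667% to 0.0113% in overexpressing worms and 0.00143% to 0.00391% in control worms. The genes perm-2, perm-4 and cpg-1 made up 80.4% to 99.6% of the members' counts in each Day 13 library and 94.9% to 99.0% in the L4 libraries of letters A to C. In the L4 libraries of letters D and E they made up 65.7% to 70.6% in overexpressing worms and 44.3% to 48.4% in control worms.

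**Figure D1:**
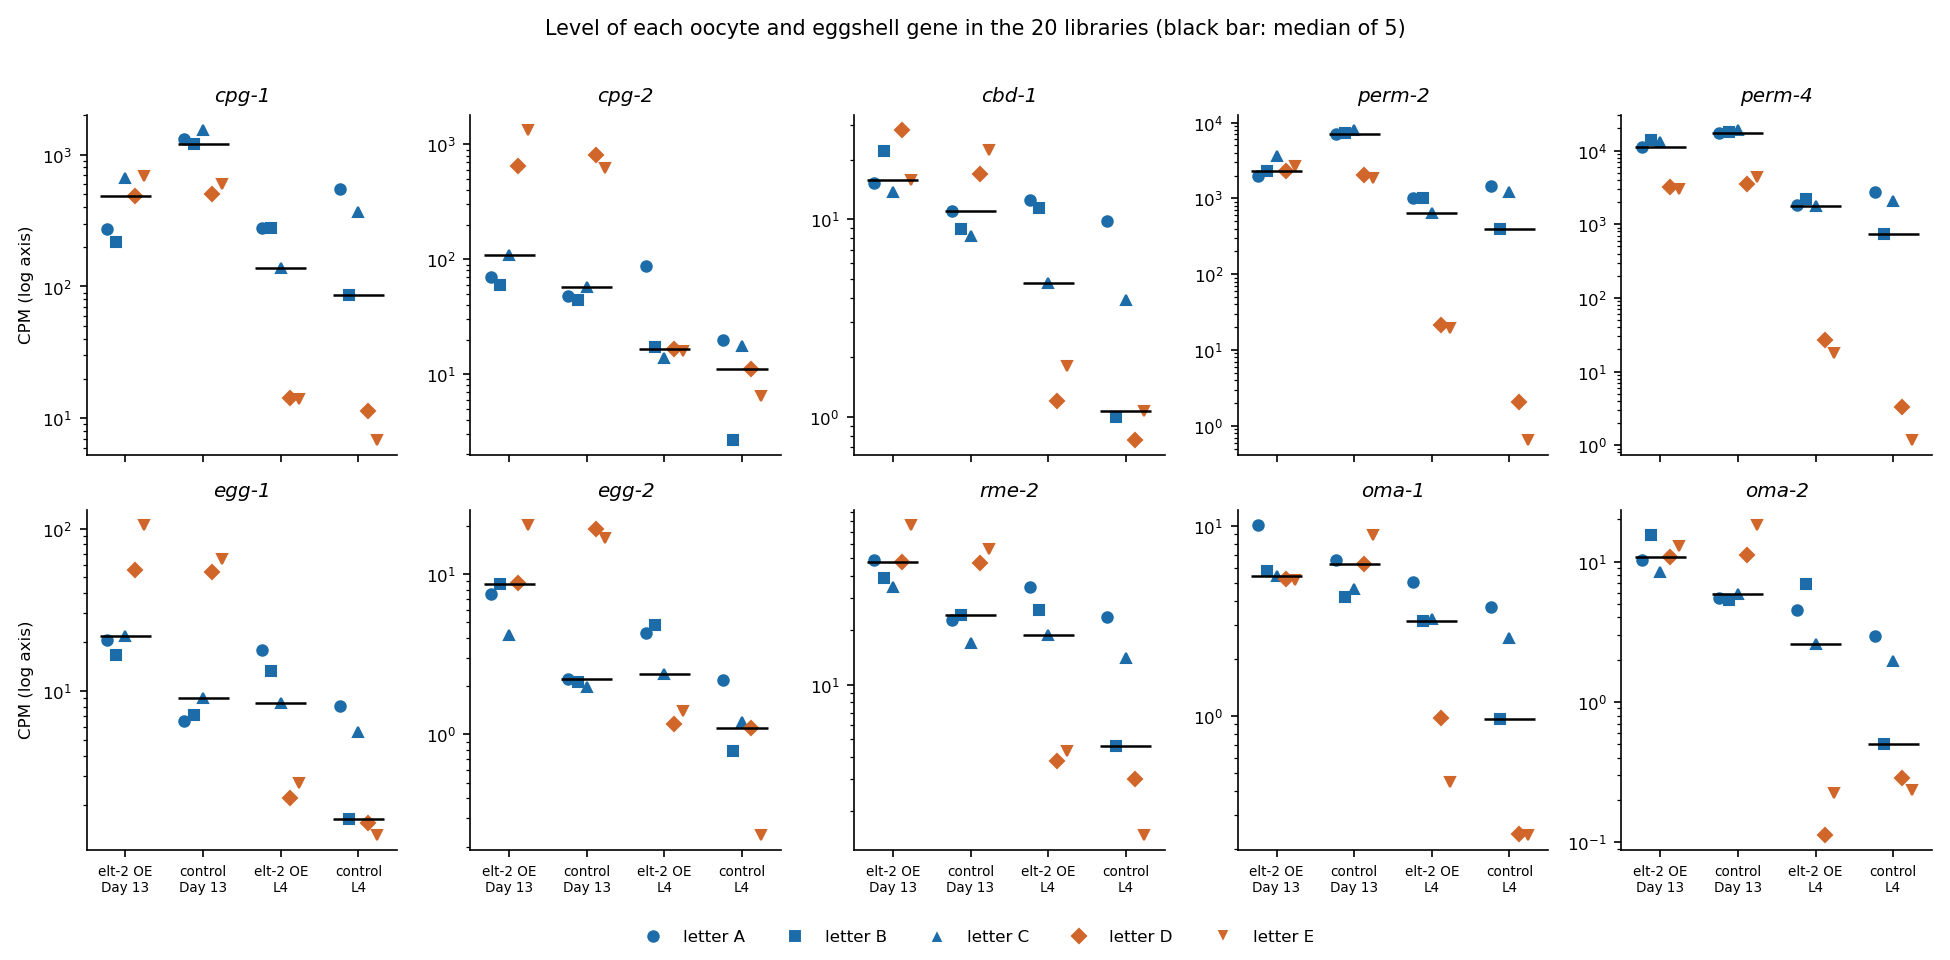
Level of each of the 10 genes in each library, in CPM on a log axis, for the 4 groups, with a black bar at the median of 5 libraries. For cpg-1, perm-2, perm-4, egg-1, rme-2, oma-1 and oma-2 the points of letters D and E lie below those of letters A to C in both L4 groups, and perm-4 spans 18813 CPM in control Day 13 library C against 1.18 CPM in control L4 library E.

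By median level, cpg-1, perm-2, perm-4 and oma-1 were highest in control worms at Day 13, followed by overexpressing worms at Day 13, overexpressing worms at L4 and control worms at L4. For cpg-2, cbd-1, egg-1, rme-2 and oma-2 the order was overexpressing worms at Day 13, control worms at Day 13, overexpressing worms at L4 and control worms at L4, and for egg-2 the overexpressing worms at L4 (median 2.37 CPM) stood before the control worms at Day 13 (2.22 CPM). Neighbouring groups in these orders overlapped, except that Day 13 and L4 overexpressing worms were apart for perm-2, perm-4 and oma-1.

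The eggshell gene perm-4 was the most abundant member. In overexpressing worms it stood at 11310.1, 13972, 13016, 3199 and 3019 CPM at Day 13 for letters A to E, against 1837, 2229, 1789, 26.7 and 17.999 CPM at L4. In control worms it stood at 17295, 17985, 18813, 3495 and 4334 CPM at Day 13, against 2717, 734, 2060, 3.34 and 1.18 CPM at L4. Every Day 13 library lay above every L4 library of its strain, and letters D and E were the lowest at both ages. Its neighbour perm-2 was also lowest in letters D and E at L4, with 998, 1019, 635, 21.4 and 19.4 CPM in overexpressing worms and 1438, 395, 1215, 2.05 and 0.651 CPM in control worms. At Day 13 perm-2 had 1981, 2328, 3572, 2332 and 2687 CPM in overexpressing worms, against 7099, 7334, 7918, 2064 and 1865 CPM in control worms. The Day 13 libraries of perm-2 did not overlap with the L4 libraries of either strain.

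The proteoglycan genes cpg-1 and cpg-2 went opposite ways between the letters in control worms at Day 13. For cpg-1 the Day 13 values were 273, 218, 664, 487 and 693 CPM in overexpressing worms, against 1310.3, 1210.5, 1529.6, 502 and 598 CPM in control worms. At L4, cpg-1 had 279, 277, 138, 14.3 and 13.9 CPM in overexpressing worms, against 546, 86.7, 369.7, 11.46 and 6.86 CPM in control worms. In control worms at Day 13, cpg-1 was thus highest in letters A to C, and in overexpressing worms Day 13 libraries A and B lay just below L4 libraries A and B. For cpg-2 the Day 13 values were 70.0, 59.9, 109.9, 643 and 1327 CPM in overexpressing worms, against 48.2, 43.95, 57.3, 805 and 621 CPM in control worms. At L4, cpg-2 had 88.2, 17.2, 13.7, 16.5 and 16.0 CPM in overexpressing worms, against 19.9, 2.67, 17.4, 11.1 and 6.39 CPM in control worms. Letters D and E held the high cpg-2 values at Day 13 in both strains, and in overexpressing worms the single high L4 library, A, made the ages overlap. The vitelline layer gene cbd-1 was scarcer, with 13.7 to 28.1 CPM in overexpressing worms and 8.23 to 22.3 CPM in control worms at Day 13, against 1.21 to 12.47 CPM and 0.764 to 9.83 CPM at L4 in the same strains.

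On the oocyte surface, the yolk receptor gene rme-2 had 48.99, 38.7, 34.5, 47.8 and 76.1 CPM in overexpressing worms at Day 13, against 22.7, 24.3, 17.1, 47.2 and 56.4 CPM in control worms. At L4 it had 34.5, 25.7, 18.9, 3.77 and 4.29 CPM in overexpressing worms, against 23.6, 4.56, 14.0, 3.01 and 1.48 CPM in control worms. The L4 libraries of letters D and E were again the lowest, and the ages overlapped in both strains. For egg-1, the Day 13 values were 20.7, 16.7, 21.7, 55.8 and 104.9 CPM in overexpressing worms, against 6.54, 7.14, 9.06, 54.2 and 64.6 CPM in control worms. At L4, egg-1 had 17.9, 13.3, 8.38, 2.18 and 2.71 CPM in overexpressing worms, against 8.09, 1.64, 5.55, 1.53 and 1.30 CPM in control worms. Like cpg-2, egg-1 was highest in letters D and E at Day 13, so the distance between the ages was wide in those letters and narrow in letters A to C. The related gene egg-2 was lower throughout, with 4.14 to 20.2 CPM in overexpressing worms and 1.98 to 18.9 CPM in control worms at Day 13, against 1.17 to 4.78 CPM and 0.237 to 2.18 CPM at L4 in the same strains.

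The maturation genes were scarce in every group. For oma-1, the Day 13 values were 10.1, 5.78, 5.45, 5.25 and 5.16 CPM in overexpressing worms, against 6.61, 4.24, 4.66, 6.31 and 8.97 CPM in control worms. At L4, oma-1 had 5.06, 3.15, 3.24, 0.979 and 0.451 CPM in overexpressing worms, against 3.73, 0.962, 2.56, 0.239 and 0.237 CPM in control worms. For oma-2, the Day 13 values were 8.41 to 15.4 CPM in overexpressing worms and 5.33 to 18.2 CPM in control worms, against 0.113 to 6.96 CPM and 0.237 to 2.97 CPM at L4 in the same strains. Neither gene overlapped between the ages within a strain, and in the L4 libraries of letters D and E oma-2 rested on as few as 3 counts in overexpressing worms and 4 in control worms.

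The first comparison asked how the genes of the oocyte and the eggshell differ between old adults and L4 larvae in each strain. All 10 log2 changes were positive in both strains. In overexpressing worms 9 of the 10 genes were higher at Day 13, all but cpg-1 (edgeR quasi-likelihood test, two-sided, Benjamini-Hochberg adjusted p under 0.10), while 25.8% of the 8863 genes tested were called higher. In control worms 6 of the 10 were higher, namely cpg-2, cbd-1, egg-1, egg-2, oma-1 and oma-2, while 21.9% of the 9063 genes tested were called higher. The median log2 change of the members was 1.88 in overexpressing worms, beside 0.22 over all genes tested, and 2.69 in control worms, beside 0.12. These 2 comparisons have no library in common. Every Day 13 library lay above every L4 library in 5 of the 10 genes in overexpressing worms, against 16.1% of all genes tested, and in 5 of the 10 in control worms, against 16.4%. In both strains perm-2, perm-4, oma-1 and oma-2 were among the 5, joined by cbd-1 in overexpressing worms and by cpg-2 in control worms.

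The largest estimate was that of cpg-2, with a log2 change of 3.83 ± 1.02 (SE) in overexpressing worms (edgeR adjusted p = 0.0114) and of 4.59 ± 1.07 in control worms (edgeR adjusted p = 0.00645). The gene egg-1 changed by 2.28 ± 0.72 in overexpressing worms (edgeR adjusted p = 0.0263) and by 2.72 ± 0.88 in control worms (edgeR adjusted p = 0.0304). For perm-4 the change was 2.90 ± 1.13 in overexpressing worms (edgeR adjusted p = 0.0607), and in control worms an estimate of 3.19 ± 1.48 did not pass the test (edgeR adjusted p = 0.110). The libraries of a group lay far apart, and for perm-4 in control L4 worms the highest exceeded the lowest by 2297-fold. Genes not called in control worms also included cpg-1 (2.05 ± 1.02), perm-2 (2.81 ± 1.44) and rme-2 (1.59 ± 0.75). The labels do not say whether the letters pair libraries across ages. With the letter as a replicate block 8 genes were called in control worms, while 2568 of the 9063 genes tested were called higher. The block added cpg-1 (3.55, edgeR adjusted p = 0.0129), perm-2 (5.03, adjusted p = 0.0397), perm-4 (5.43, adjusted p = 0.0284) and rme-2 (2.08, adjusted p = 0.0894), and it lost egg-1 (adjusted p = 0.104) and egg-2 (adjusted p = 0.102). In overexpressing worms the block left the same 9 genes called, while 2891 of the 8863 genes tested were called higher. Leaving out 1 library took the 9 calls in overexpressing worms to 4 (without L4 library C, L4 library E or Day 13 library B) or to 5 (without Day 13 library C), and to 10 without L4 library A. In control worms the 6 calls went to 4 (without L4 library B or D, or Day 13 library A, B, D or E) and to 9 without L4 library A.

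**Figure D2:**
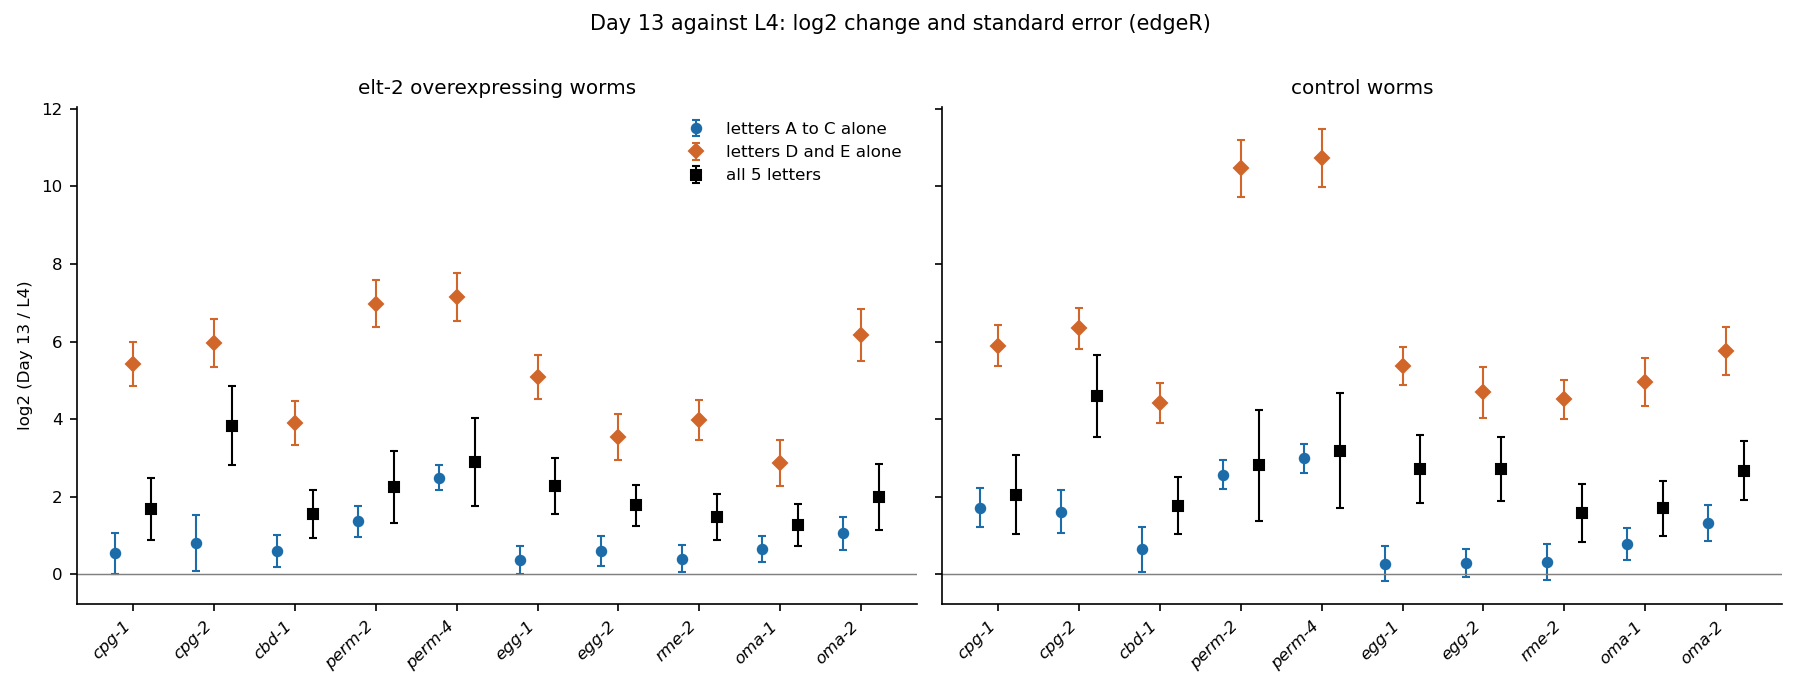
Log2 change, Day 13 over L4, of each of the 10 genes (edgeR estimate, bars show the standard error) in overexpressing worms on the left and control worms on the right, within letters A to C, within letters D and E, and over all 5 letters. Within letters D and E every estimate is at least 2.87, and within letters A to C none exceeds 2.99.

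The age change was also estimated within each set of letters, and whether it differs between the sets was not tested. Within letters D and E all 10 genes were higher at Day 13 in overexpressing worms (27.1% of all genes were) and all 10 in control worms (30.4% of all genes were), with median log2 changes of 5.25 and 5.56. The largest estimates were those of perm-4, with 7.14 ± 0.63 in overexpressing worms and 10.73 ± 0.74 in control worms, followed by perm-2 with 6.98 ± 0.61 and 10.47 ± 0.73 in the same strains. Within letters A to C, 3 genes were higher in overexpressing worms (24.8% of all genes were), namely perm-2 (1.36 ± 0.39), perm-4 (2.49 ± 0.33) and oma-2 (1.05 ± 0.42). In control worms 5 genes were higher within letters A to C (25.8% of all genes were), namely cpg-1 (1.72 ± 0.49), cpg-2 (1.61 ± 0.55), perm-2 (2.57 ± 0.38), perm-4 (2.99 ± 0.38) and oma-2 (1.32 ± 0.47). The egg-1, egg-2 and rme-2 estimates within letters A to C lay between 0.36 and 0.60 in overexpressing worms and between 0.27 and 0.30 in control worms, and none of the 3 passed the test. The fits within letters D and E rest on 2 libraries a group and take their error from the spread shared over genes.

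The scaling of the libraries bears on the size of these changes and not on their direction in the fits of all letters. With library totals taken without the top 3% of genes, the median log2 change of all genes was 0.56 in overexpressing worms and 0.61 in control worms. The share of all called genes that were higher at Day 13 was 52.5% with TMM and 63.1% with those totals in overexpressing worms, and 48.0% and 65.4% in control worms. All 10 members then passed the test in both strains, with a median of 2.08 in overexpressing worms and 3.34 in control worms. Over all genes tested, 2956 of 8863 were called higher with those totals in overexpressing worms, and 3185 of 9063 in control worms. With DESeq2 size factors in the edgeR fit, 6 passed in each strain, and the calls of rme-2 (adjusted p = 0.102), oma-1 (0.124) and oma-2 (0.109) were lost in overexpressing worms. Higher calls over all genes tested were then 1914 of 8863 in overexpressing worms and 1903 of 9063 in control worms. Within letters A to C, the totals without the top 3% of genes called 9 members in overexpressing worms and 6 in control worms. The share of called genes that were higher was there 65.7% (49.3% with TMM) and 63.3% (46.5% with TMM) in the same strains. Of all genes tested there, 3525 of 9123 were called higher in overexpressing worms and 3610 of 8938 in control worms.

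The second comparison asked whether extra elt-2 changes these genes at a given age. At Day 13, over all 5 letters, none of the 10 genes passed the test (edgeR), while 0.0117% of the 8544 genes tested did. One gene, cpg-1, had an unadjusted p under 0.05 with edgeR, while 1125 of the 8544 genes tested did. None of the 10 was called by DESeq2, and the values of the strains overlapped in all 10, where 0.995% of all genes did not overlap. The lowest estimates were those of cpg-1 (-1.13 ± 0.50, edgeR adjusted p = 0.356) and perm-2 (-1.04 ± 0.48, adjusted p = 0.380), and the highest was that of egg-1 (0.64 ± 0.81, adjusted p = 0.830).

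Within letters A to C, 8 of the 10 genes differed between the strains at Day 13, in both directions. In overexpressing worms 5 were higher, while 23.7% of all genes tested were: cbd-1 (0.75 ± 0.30), egg-1 (1.28 ± 0.31), egg-2 (1.57 ± 0.31), rme-2 (0.83 ± 0.32) and oma-2 (0.92 ± 0.30). The other 3 were lower, while 23.2% of all genes tested were: cpg-1 (-1.88 ± 0.46), perm-2 (-1.59 ± 0.32) and perm-4 (-0.60 ± 0.24). For egg-2 the values were 7.50, 8.72 and 4.14 CPM in overexpressing worms against 2.22, 2.12 and 1.98 CPM in control worms (edgeR adjusted p = 0.00564), and for perm-2 they were 1981, 2328 and 3572 CPM against 7099, 7334 and 7918 CPM (adjusted p = 0.00563). These 8 genes and cpg-2 had values that did not overlap between the strains in these letters, where 52.9% of all genes tested did not overlap. In letters D and E none of the 10 passed the test (edgeR, none with an unadjusted p under 0.05), with estimates from -0.58 for oma-1 to 0.44 for cpg-2. Whether the strain difference itself differs between the sets of letters was not tested. In the same Day 13 libraries of letters A to C, other gene groups also stood apart between the strains in summed CPM, in both directions. The 9 intestine genes stood at 297 to 1227 in overexpressing worms against 2578 to 2899.9 in control worms, and the 6 yolk protein genes at 1210.6 to 3766 against 4390.1 to 9889.8. The 35 other oocyte and eggshell genes stood at 877 to 1392 in overexpressing worms against 2250.2 to 2559 in control worms, and genes of germline mitosis and meiosis at 561 to 807 against 916 to 1129.6. Body muscle genes stood at 19.6 to 26.8 against 38.8 to 43.3, neuronal genes at 49.6 to 59.3 against 80.3 to 88.1. Pharynx genes stood at 2.40 to 3.65 against 4.16 to 7.53, and all these sums were lower in overexpressing worms. Genes that embryos switch on early, of which 2 of 10 were abundant enough to be tested over all letters, were instead higher in overexpressing worms (17.8 to 20.8 against 13.7 to 16.4). So were somatic gonad genes (9.33 to 14.5 against 6.81 to 7.40), while sperm and hypodermal genes overlapped. The part of these groups in the members' differences was not tested. A sum is weighted towards the abundant genes of a list. Gene by gene over all 5 letters at Day 13, 24 of 34 other oocyte and eggshell genes had estimates above 0 (edgeR, median 0.18). Of the 20 genes of germline mitosis and meiosis, 10 did (median -0.015), and no gene of either list was called. Unlike the sums above, these gene counts take in letters D and E. In those letters the 35 genes summed to 1240 to 1352 CPM in overexpressing worms against 949 to 1018 CPM in control worms. The genes of germline mitosis and meiosis summed there to 366 to 522 against 278 to 338 CPM. With totals taken without the top 3% of genes, letters A to C kept cpg-1 (-1.31) and perm-2 (-0.98) lower. There perm-4 stood at 0.041, where the median of all genes was 0.81. The share of all called genes in letters A to C that were higher in overexpressing worms was then 74.7%, against 50.5% with TMM.

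**Figure D3:**
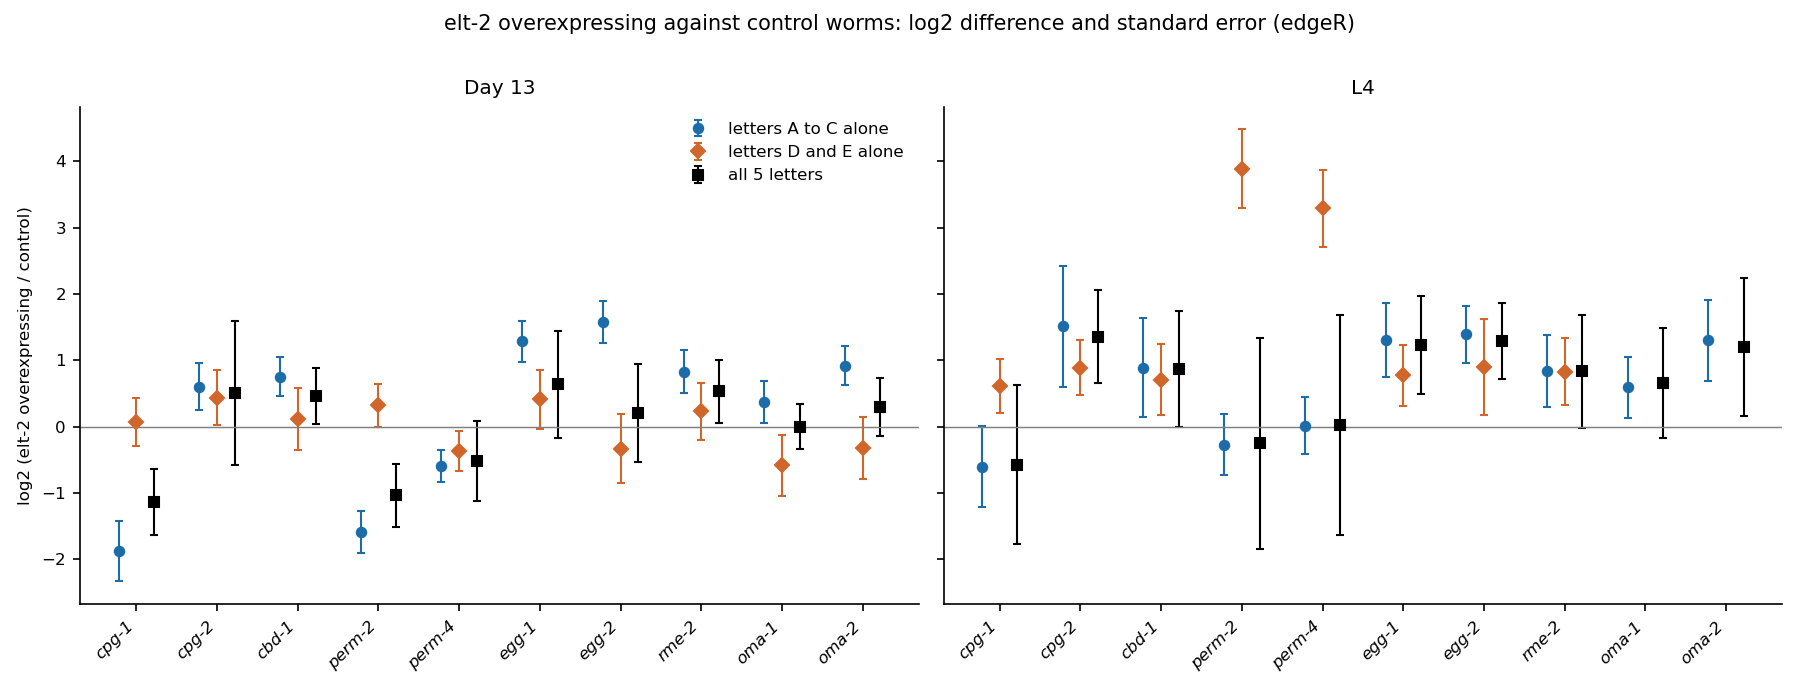
Log2 difference of each gene, elt-2 overexpressing over control (edgeR estimate, bars show the standard error), at Day 13 on the left and L4 on the right, within letters A to C, within letters D and E, and over all 5 letters. At Day 13 within letters A to C, cpg-1, perm-2 and perm-4 lie below 0 and the other 7 lie above it; oma-1 and oma-2 were too scarce to be tested at L4 in letters D and E.

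At L4, over all 5 letters, none of the 10 genes passed the test between the strains (edgeR, 0.0345% of the 8696 genes tested did), and the values of the strains overlapped in all 10, where 2.52% of all genes did not overlap. One gene, egg-2, had an unadjusted p under 0.05, DESeq2 called none, and 8 of the 10 estimates were positive, with a median of 0.85 beside 0.05 over all genes. The highest were cpg-2 (1.36 ± 0.70, edgeR adjusted p = 0.507), egg-2 (1.29 ± 0.58, adjusted p = 0.473) and egg-1 (1.23 ± 0.74, adjusted p = 0.550). With the letter as a replicate block, all 10 estimates were positive and 5 had an unadjusted p under 0.05 (edgeR). Over all 8696 genes tested, 1866 had an unadjusted p under 0.05 with the block, against 911 without it. None of the 10 members passed the adjusted test, while the count over all genes went to 211 with the block, against 3 without it. Within letters A to C, 1 gene was higher in overexpressing worms, egg-2 (1.39 ± 0.43, edgeR adjusted p = 0.0514), where 32.8% of all genes changed. Within letters D and E, 1 of the 8 genes tested was higher, perm-2 (3.89 ± 0.60, adjusted p = 0.0927), where 0.335% of all genes changed. In every letter, the overexpressing library held more of cbd-1, egg-1, egg-2, rme-2 and oma-1 than the control library did. How many of all genes did the same was not counted, so this is no result about the members. The labels do not say whether letters pair the strains, and for egg-2 in letter D the values were 1.17 against 1.10 CPM.

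The difference between the age changes of the strains was fitted to all 20 libraries. It was below 0 for all 10 genes, a smaller age change in overexpressing than in control worms, from -1.11 ± 0.98 for egg-2 to -0.35 ± 0.96 for rme-2. None passed the test (edgeR, 0% of the 10545 genes tested), none had an unadjusted p under 0.05, and DESeq2 called none. The median was -0.67 for the members and -0.15 for all genes. Within letters A to C, egg-1 (0.088), egg-2 (0.28) and rme-2 (0.092) had the other sign and the lowest value was that of perm-2 (-1.20). Within letters D and E, oma-2 (0.34) had the other sign. There perm-4 (-3.65 ± 0.70), perm-2 (-3.56 ± 0.69) and oma-1 (-2.15 ± 0.77) were far lower and had an unadjusted p under 0.05 (edgeR). Of all 10904 genes tested in these letters, 488 had an unadjusted p under 0.05. In control L4 worms of these letters perm-4 rested on 20 and 70 counts, perm-2 on 11 and 43 and oma-1 on 4 and 5. None of the 10 passed the adjusted test in either set (edgeR, lowest adjusted p = 0.124, that of perm-4).

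The members differed among themselves in how the letters ordered them, which is free of any scaling when read as a ratio of counts within a library. The ratio of cpg-1 to cpg-2 in letters A to C at Day 13 was 3.64 to 6.04 in overexpressing worms against 26.7 to 27.5 in control worms. In letters D and E at Day 13 it was 0.523 to 0.757 in overexpressing worms against 0.624 to 0.963 in control worms. At L4 the ratio was 3.16 to 16.0 in overexpressing worms against 21.2 to 32.4 in control worms for letters A to C, and 0.863 to 0.873 against 1.03 to 1.07 for letters D and E. In control worms of letters A to C the ratios of the ages overlapped, although both genes were higher at Day 13. The ratio of perm-4 to perm-2 ran from 3.64 to 6.002 in overexpressing worms against 2.38 to 2.45 in control worms in letters A to C at Day 13, and from 1.12 to 1.37 against 1.69 to 2.32 in letters D and E. The ratio of egg-1 to egg-2 was 1.91 to 6.37 in overexpressing worms and 2.86 to 4.57 in control worms at Day 13, with overlap between the strains.

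**Figure D4:**
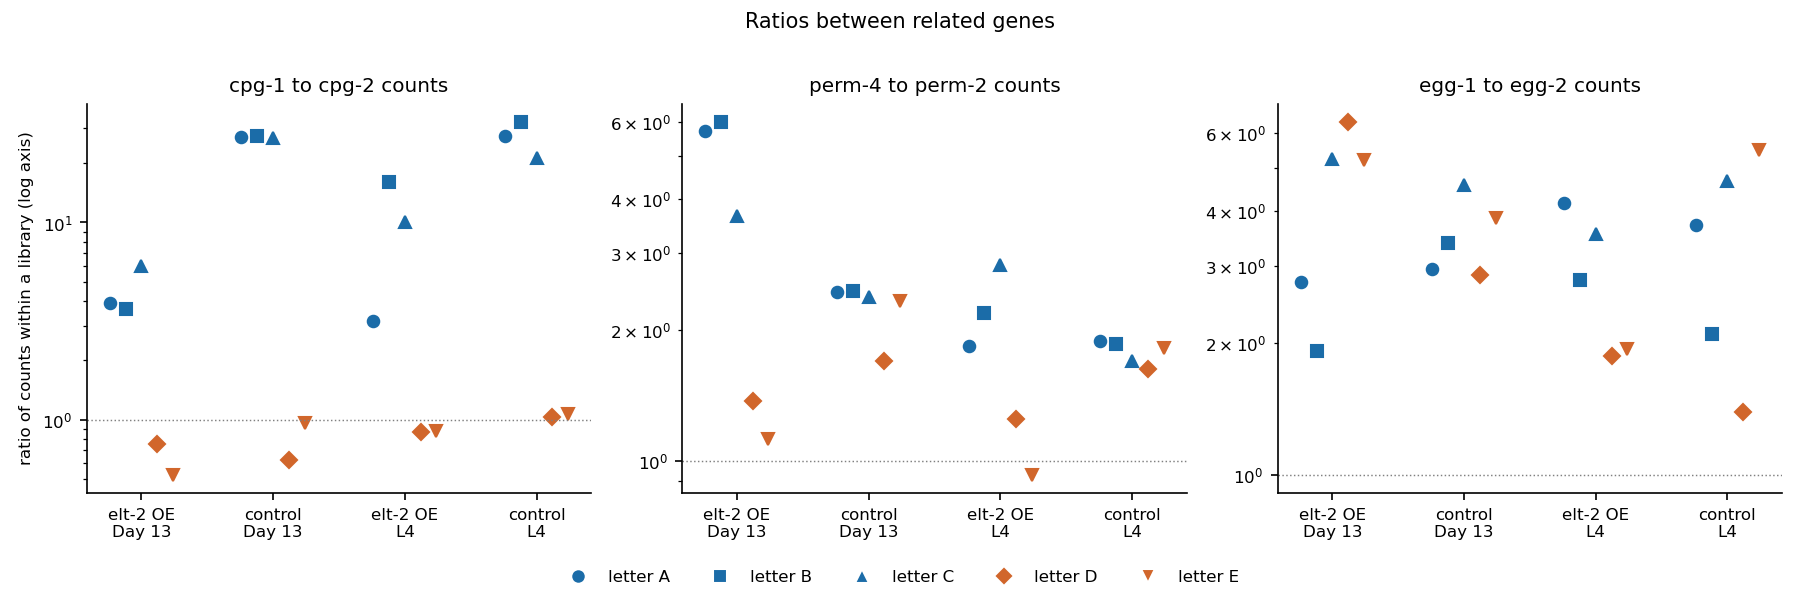
Ratio of counts within each library, on a log axis, for cpg-1 to cpg-2, perm-4 to perm-2 and egg-1 to egg-2 in the 4 groups. The cpg-1 to cpg-2 ratio is at most 1.07 in every library of letters D and E and at least 3.16 in every library of letters A to C, with the control libraries of letters A to C at 21.2 or more.

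After the mean of each group was taken away, perm-2, perm-4 and cpg-1 moved together over the 20 libraries, with Pearson's r of log2 CPM of 0.92 to 0.98. The 4 genes cbd-1, rme-2, oma-1 and oma-2 had r of 0.84 to 0.93 among themselves, and cpg-2, egg-1 and egg-2 had r of 0.79 to 0.90. With cpg-1, perm-2 and perm-4, r was lowest for cpg-2 (0.18, 0.04 and -0.09), and it was 0.27, 0.23 and 0.18 for egg-2 and 0.51, 0.40 and 0.32 for egg-1. These sets run into each other, since egg-1 had r of 0.84 with rme-2. These values describe the libraries only, which share strain, letter and depth. The gene closest to the mean of the other members was rme-2 (r = 0.986).

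Among the 10535 other genes, those most like the mean of the 10 members over the 20 libraries were puf-5 (r = 0.977), mex-5 (0.977), T04G9.7 (0.976), clec-87 (0.973), puf-3 (0.973), hrde-1 (0.969), C05C10.5 (0.969), mex-1 (0.967), ZK813.7 (0.967) and Y62H9A.3 (0.966). After the group means were taken away, mex-5 (0.958) and puf-5 (0.956) led, and clec-87, puf-3, T04G9.7, ZK813.7 and C05C10.5 were again among the first 10, joined by T01C3.3, puf-11 and D1086.7. The puf and mex genes among them encode RNA-binding proteins of the germline and early embryo, and hrde-1 encodes a nuclear Argonaute of the germline.

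Other genes of the oocyte and the eggshell were read from a list of 35, of which 35 were tested in overexpressing worms and 34 in control worms. In each strain 17 were higher at Day 13 and 2 were lower (edgeR), with a median log2 change of 1.504 in overexpressing worms and 1.62 in control worms. The largest were cav-1, a caveolin of the germline, with 6.61 in overexpressing worms and 8.17 in control worms, and pos-1, an RNA-binding protein of the early embryo, with 2.74 and 3.49 in the same strains. The 2 lower genes in each strain were cpg-9 (-7.47 in overexpressing worms and -7.41 in control worms) and cpg-7 (-1.64 and -2.27 in the same strains), both named for chondroitin proteoglycans like cpg-1 and cpg-2. Within letters D and E 30 of the list were higher in overexpressing worms and 28 in control worms, and within letters A to C 14 in each strain. Of all genes tested, 27.1% and 30.4% were higher within letters D and E, and 24.8% and 25.8% within letters A to C, in the same strains. The 20 genes of germline mitosis and meiosis gave 4 higher and none lower in overexpressing worms, and 4 higher and 1 lower in control worms, over all letters. Of all genes tested over all letters, 25.8% were called higher and 23.4% lower in overexpressing worms, and 21.9% and 23.7% in control worms.

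**Figure D5:**
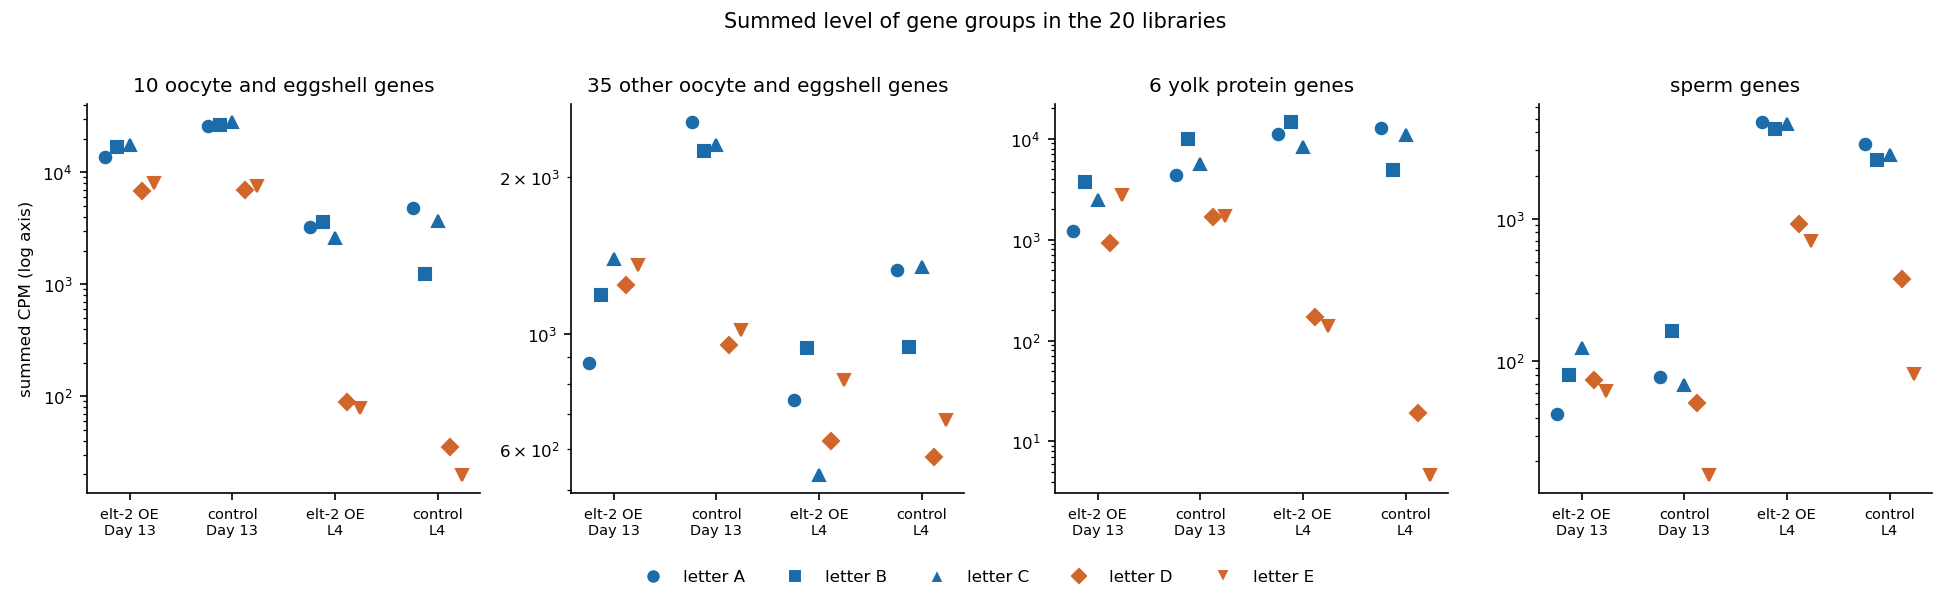
Summed CPM, on a log axis, of the 10 members, of 35 other oocyte and eggshell genes, of 6 yolk protein genes and of 20 sperm genes in each library of the 4 groups. Letters D and E of both L4 groups lie below letters A to C for the members, the yolk proteins and the sperm genes. In overexpressing L4 worms the other oocyte and eggshell genes stand at 622 to 814 CPM in letters D and E, overlapping the 533 to 937 CPM of letters A to C. In control L4 worms they stand at 578 to 682 CPM in letters D and E, below the 942 to 1343 CPM of letters A to C.

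Between the letters at L4, other gene groups were lower in letters D and E like the members, and some were higher. The 6 yolk protein genes summed to 138 to 173 CPM in overexpressing worms and 4.61 to 19.2 CPM in control worms in letters D and E, with vit-5 at 0 in control worms, and to 8341 to 14783 CPM and 4871 to 12767 CPM in letters A to C of the same strains. The 20 sperm genes summed to 702 to 919 CPM in overexpressing worms and 81.8 to 380.1 CPM in control worms in letters D and E, against 4218 to 4761 CPM and 2566 to 3338 CPM in letters A to C. The 6 hypodermal genes were also lower in letters D and E at L4, with 771 to 1093 CPM in overexpressing worms and 831 to 1052 CPM in control worms, against 7440.1 to 13341 CPM and 5123 to 8275 CPM in letters A to C. The genes of germline mitosis and meiosis summed to 429 to 474 CPM in overexpressing worms and 346 to 446 CPM in control worms in letters D and E, against 546 to 719 CPM and 932 to 1327 CPM in letters A to C. Intestine genes were instead higher in letters D and E, with 4306 to 7090.1 CPM in overexpressing worms and 6666 to 7534 CPM in control worms, against 1947 to 2336 CPM and 3948 to 4859 CPM in letters A to C. So were pharynx genes, with 24.6 to 37.6 CPM in overexpressing worms and 38.1 to 46.4 CPM in control worms, against 10.4 to 16.6 CPM and 11.9 to 15.1 CPM in letters A to C. Body muscle genes were higher in overexpressing worms, with 785 to 1077.5 CPM in letters D and E against 429 to 613 CPM in letters A to C, and overlapped in control worms. The part of these groups in the age changes of the members was not tested.

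Between the ages, 23.4% of all genes tested were called lower at Day 13 and 25.8% higher in overexpressing worms, and 23.7% and 21.9% in control worms. The sperm genes gave 14 lower and none higher in each strain, of 15 tested in overexpressing worms and 17 in control worms. The yolk protein genes gave 2 lower and none higher in each strain over all letters (1 lower in control worms with the replicate block). Within letters A to C, 6 of the 6 yolk genes were lower in overexpressing worms, and 4 lower and 1 higher in control worms. Within letters D and E, 4 were higher in overexpressing worms and 5 in control worms, and none lower in either. In letters A to C, 4588 of all 9123 genes tested were called in overexpressing worms (2263 higher) and 4954 of 8938 in control worms (2305 higher). In letters D and E, 5480 of 9746 were called in overexpressing worms (2644 higher) and 5642 of 9652 in control worms (2933 higher). Of the somatic lists, 6 of 6 body muscle genes, 3 of 3 pharynx genes and 7 of 9 intestine genes were lower at Day 13 in each strain, and 5 of 6 hypodermal genes were in overexpressing worms and 3 of 6 in control worms. Of 6 neuronal genes, 2 were higher in each strain, and 3 were lower in overexpressing worms and 4 in control worms. Of 3 somatic gonad genes, none passed the test in overexpressing worms (edgeR, median 0.61) and 1 was higher in control worms (median 0.98). The 10 genes that embryos switch on early summed to 6.54 to 20.8 CPM in overexpressing worms and 7.35 to 16.4 CPM in control worms at Day 13, against 0.249 to 0.503 CPM and 0.317 to 0.477 CPM at L4, with med-1, med-2 and tbx-35 at 0 in every group. Of these 10, 5 reached 3 counts in a library in overexpressing worms and 7 in control worms at Day 13, and 2 in each strain at L4. Only 2 were abundant enough to be tested between the ages in overexpressing worms and 1 in control worms. What embryos held in or left among the Day 13 worms add to the members' counts was not tested.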

How the data were processed

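Raw counts per gene for 20 whole-worm 3SEQ libraries were used as deposited by the authors. The submitters' processing notes name Bowtie 0.12.7; build, annotation, strand use and duplicate removal are not given in the sources used here. Samples were grouped by title. Of 3 columns without a header, 1 with values was not used. Sequence names were matched to Ensembl 115 for 20881 of 21383 genes (97.7%); perm-2 and perm-4 follow that annotation. The members and the gene lists were chosen with earlier results of these data known. Each fit held the groups compared (edgeR 4.0.16 in R 4.3.3: filterByExpr, TMM, robust glmQLFit, quasi-likelihood F test, Benjamini-Hochberg adjustment over all genes, threshold 10%); the interaction used all 20 libraries. Levels are TMM-scaled CPM, with 0.5 added before log2 for correlations and differences within a letter. All 10 members passed the filter in the 5 fits of all letters. The fits were tested on simulated data with the same spread for every gene and no difference between letters. That test therefore does not cover the split between the letters. Alternatives were a replicate block, other scalings, no filter, DESeq2 1.42.0, sets of letters, and each library left out. Same-letter libraries deviated together in every pair for L4 strains (mean r = 0.675), control ages (0.517) and overexpressing ages (0.337), and in 4 of 5 pairs for Day 13 strains (0.354), which were not taken as paired. The split between the sets of letters enters these values. Libraries of different letters within a set were not compared, so the values do not show pairing by letter. Named genes were all members, and for lists the 2 called genes with the largest and the 2 with the smallest log2 change.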

Additional observations from a re-analysis of the deposited data

Results flagged for a closer look

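Within the groups of 5 libraries, 3 of the 40 sets of values (10 genes in 4 groups) held a library far from the other 4 in CPM. A chance rate of about 1 in 20 holds for 5 independent, normally distributed values. It does not carry over to these sets, since the groups are split by letter and the members were correlated. For cpg-2, overexpressing L4 library A had 88.2 CPM, and the other 4 had 13.7 to 17.2 CPM. For egg-2, overexpressing Day 13 library E had 20.2 CPM, and the other 4 had 4.14 to 8.76 CPM. For oma-1, overexpressing Day 13 library A had 10.1 CPM, and the other 4 had 5.16 to 5.78 CPM.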

How the results depend on the processing

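Leaving out 1 library kept direction and side of the threshold for 530 of 600 values of single members (44 lost and 7 gained the call, 19 reversed), and the other alternatives did so for 299 of 408 (33 lost, 55 gained, 21 reversed). The cause of these shifts was not tested. All age changes of the members stayed positive in every alternative. Over all genes tested, the DESeq2 Wald test called 2343 of 9063 higher for control ages. With no filter, 2943 of 18080 were called higher for overexpressing ages. Members called, of 10: control ages (6) gave 10 with totals without the top 3% of genes, the DESeq2 Wald test or letters D and E, and 4 to 9 with a library left out; overexpressing ages (9) gave 6 with DESeq2 size factors, 5 with no filter, 3 in letters A to C, and 4 to 10 with a library left out. Strains at L4 (0) gave 1 in each set of letters, and strains at Day 13 (0) gave 8 in letters A to C. Letters A to C with another scaling was chosen after seeing the data: 7 (Day 13 strains) and 3 (overexpressing ages) with DESeq2 size factors, and 9 (Day 13 strains) with totals without the top 3% of genes, where perm-4 was 0.041. Genes called overall: strains at L4 (3) gave 211 with the replicate block, 461 with DESeq2, 2957 in letters A to C, 30 in D and E, and 0 to 1 with a library left out. Strains at Day 13 (1) gave 0 with the replicate block (same-letter deviations correlated in 4 of 5 pairs), 2 with no filter or totals without the top 3%, 741 with DESeq2, 4094 in A to C (3929 and 5727 with those scalings), 0 in D and E, and 0 to 662 with a library left out (662 without control library E). Without a filter the ages gave 6341 (control, 4135) and 6587 (overexpressing, 4361), and the difference between age changes (0) gave 138 in A to C and 20 in D and E. Signs at L4: cpg-1 turned to 0.088 with the replicate block and 0.62 in D and E (-0.96 to 0.21 with a library left out), perm-2 to 1.44 with the replicate block, 0.26 with totals without the top 3% and 3.89 in D and E (-0.63 to 0.34), and perm-4 to -0.0069 with DESeq2 size factors or the Wald test and -0.014 with no filter (-0.35 to 0.67). Signs at Day 13: in D and E, cpg-1 0.072, perm-2 0.32, egg-2 -0.33, oma-1 -0.58 and oma-2 -0.32; oma-1 was -0.028 with DESeq2 size factors, -0.025 with the Wald test and -0.011 with no filter; with a library left out, oma-1 ran from -0.19 to 0.18, cpg-2 from -0.56 to 1.24, egg-1 from -0.035 to 1.19 and egg-2 from -0.29 to 0.77, the last 3 lowest without overexpressing library E. The difference between age changes was 0.088 (egg-1), 0.28 (egg-2) and 0.092 (rme-2) in A to C and 0.34 (oma-2) in D and E, and with a library left out ran from -1.92 to 0.033 (cpg-2) and -1.04 to 0.067 (rme-2), highest without overexpressing L4 library A. The replicate block changed no other call of a member beyond those given with the age changes. Depth limits oma-1, oma-2 and egg-2 at L4 in letters D and E, with as few as 3 counts.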
